A study of Mus musculus with 4 samples.

Results

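Mouse embryonic fibroblasts carrying 4 introduced reprogramming factors were compared at 5% and at 21% O2. The comparison rests on 2 of the 4 arrays of the series, 1 for each oxygen level. Both cultures had been transduced with Oct3/4 (gene Pou5f1), Sox2, Klf4 and c-Myc and then held at their oxygen level for 72 hours. The labels place these cells at day 4. The other pair of arrays held untransduced fibroblasts kept for 10 days at 21% or at 5% O2, and those values are given only where they help to read the four-factor cells. Strain, passage, vector and the number of cultures behind an array were not given in the sources used here. The 2 four-factor arrays lay on 1 slide and the 2 untransduced arrays on another, so slide, time in culture and transduction cannot be told apart between the pairs.

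Of 27576 gene names on the array, 17923 had a probe well above background on both four-factor arrays and are called measured below. A level is the log2 signal of a gene's probe less its array's 75th percentile, and a difference is the level at 5% O2 minus the level at 21% O2. Levels of different genes come from different probes and are not compared with each other. With 1 array per condition no difference within the four-factor cells can be tested, so genes are counted by size alone. Among the measured genes, 224 reached 2-fold toward 5% O2 (1.25%) and 193 reached it toward 21% O2 (1.08%), together 417 (2.33%). By any amount, 48.1% were higher. The untransduced pair gave 389 of 15194 genes past 2-fold higher (2.56%) and 262 past 2-fold lower (1.72%), with 44.8% higher by any amount. The median difference was -0.012 with an SD of 0.38 across genes. The scanner software's own error for 1 spot came to a median of 0.20 on a difference, and 55.0% of genes lay within their own spot error. This error covers the spot alone and leaves out the spread between cultures. Dim genes scattered more, with an SD of 0.49 below a signal of 100 against 0.33 above it, and 118 of the 224 higher and 127 of the 193 lower genes had a signal below 100 on at least 1 of the arrays. Scaling the arrays to their 8 spike-in probes instead of the 75th percentile moved the median of all genes up by 0.17, to 0.157, and the counts past 2-fold became 349 higher and 96 lower. A background correction that shrinks dim signals (normexp) kept 96 of the 224 higher and 36 of the 193 lower genes past 2-fold. Its value is given below for some dim genes, mainly those past 2-fold. Where a dim gene has no such value below, its difference may be smaller with normexp too. In bulk RNA, fewer cells of a type and less RNA per cell cannot be told apart. Below, differences are relative to the 75th percentile, and a family whose direction turns under spike-in scaling is named as such.

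As background, cells at low oxygen stop hydroxylating the HIF alpha subunits, which then enter the nucleus and switch on genes for glucose uptake, glycolysis and lactate export. Many enzymes that use oxygen and 2-oxoglutarate, among them prolyl and lysyl hydroxylases of collagen and the Jumonji histone demethylases, depend on oxygen directly. Fibroblasts that receive the 4 factors pass through a phase in which they divide quickly, lose mesenchymal genes and gain epithelial ones before a few reach pluripotency. Genes on the lists of HIF targets and of glycolysis, of which 15 of 34 and 7 of 20 measured members were at least 2-fold higher, are left aside here except where they belong to another pathway. A gene outside these lists may still be a HIF target, since the lists are not complete.

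**Figure D1:**
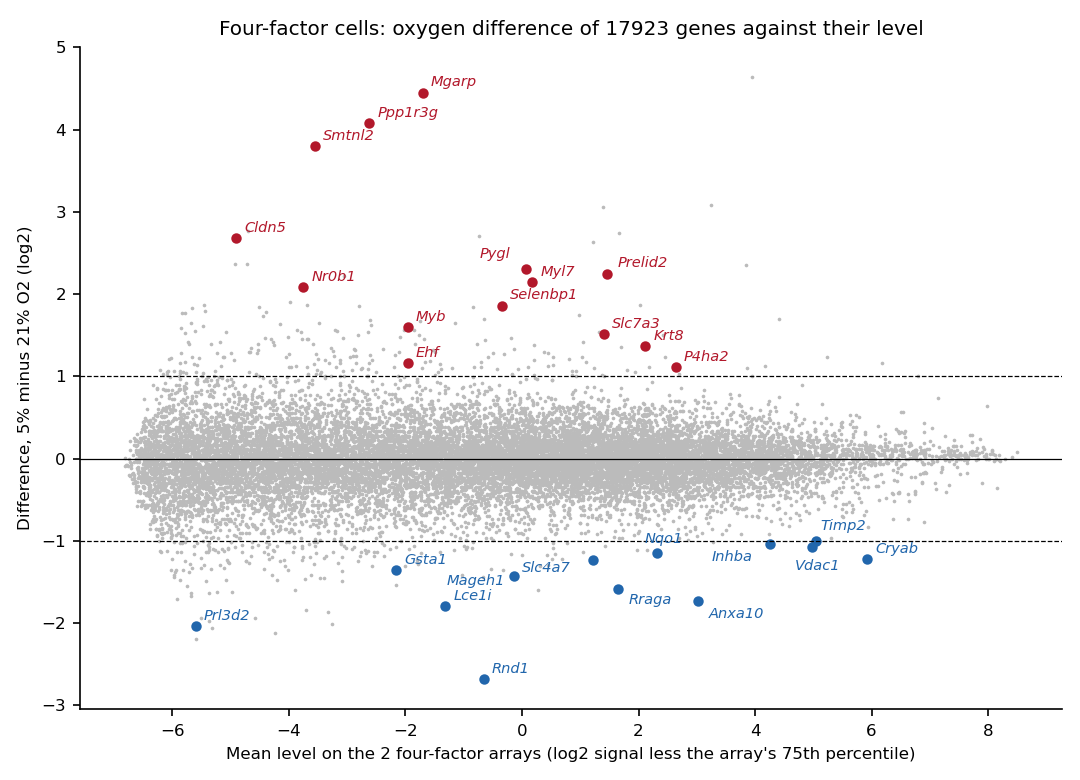
Difference between 5% and 21% O2 (vertical axis, log2) against the mean level on the 2 four-factor arrays (horizontal axis, log2 signal less the 75th percentile) for the 17923 measured genes. Grey points are genes, coloured points are named genes that are described in the text, and dashed lines mark 2-fold. The scatter widens toward dim genes on the left, and Mgarp (4.45), Ppp1r3g (4.08) and Rnd1 (-2.68) lie far outside it.

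Outside the hypoxia lists, the genes of glycogen storage held some of the highest differences. Glycogen is built by glycogen synthase and the branching enzyme and broken down by phosphorylases, and regulatory subunits of protein phosphatase 1 bring the phosphatase to the glycogen particle, where it activates the synthase. Ppp1r3g, one of these subunits, had a level of -4.66 at 21% O2 and -0.59 at 5% O2, a difference of 4.08 (16.9-fold) that was 2.99 with normexp. The subunit Ppp1r3c went from -6.10 to -3.74, a difference of 2.37 that was 1.08 with normexp, and Ppp1r3b from -3.29 to -2.19, 1.10 that was 0.85 with normexp. The liver-type phosphorylase Pygl had -1.09 at 21% O2 and 1.22 at 5% O2, a difference of 2.31. Smaller differences were seen for phosphoglucomutase Pgm1 (0.78), the branching enzyme Gbe1 (0.70) and the synthase Gys1 (0.63), which were 3.18, 2.32 and -0.86 in level at 21% O2. The list as a whole did not lean one way: 12 of its 23 measured genes were higher and 11 lower, with a median of 0.11, and 4 were at least 2-fold higher. The brain-type phosphorylase Pygb (-0.21), UDP-glucose pyrophosphorylase Ugp2 (-0.21) and lysosomal acid glucosidase Gaa (-0.39) were among the lower ones. In untransduced fibroblasts Pygl differed by 1.74 and Ppp1r3b by 0.96 in the same direction. Ppp1r3g was not well above background there at 21% O2 and stood at -2.86 at 5% O2.

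**Figure D2:**
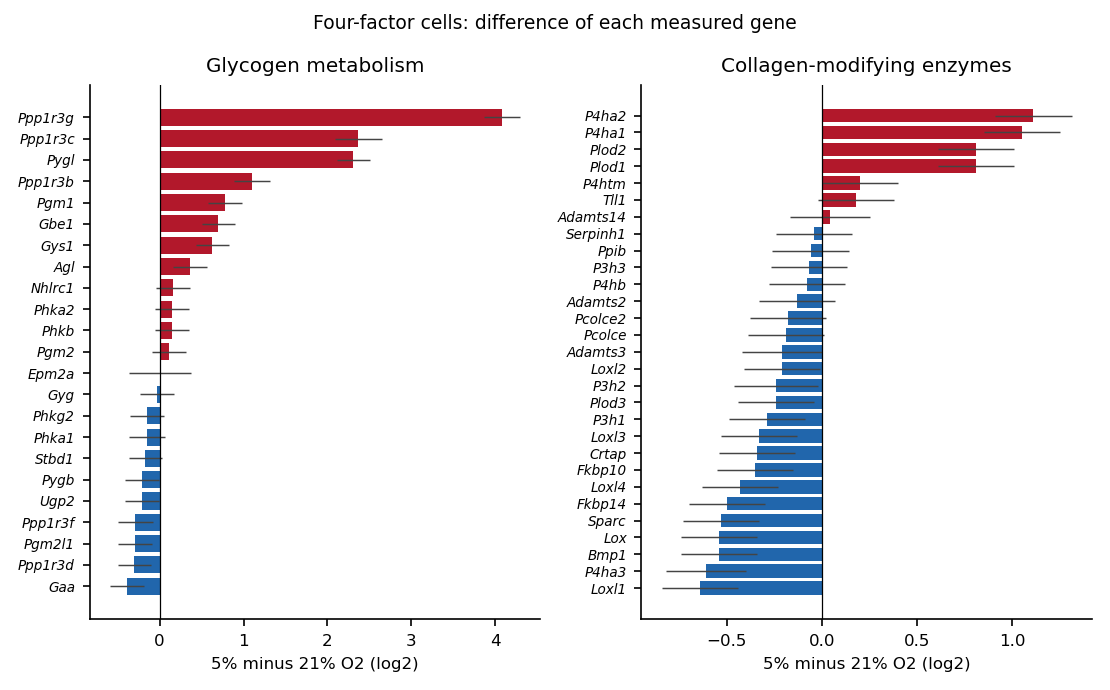
Difference between 5% and 21% O2 in four-factor cells (horizontal axis, log2) for each measured gene of glycogen metabolism (left, 23 genes) and of collagen modification (right, 29 genes). Red bars are higher and blue bars lower at 5% O2, and the thin lines give the scanner's spot error, not a spread between cultures. Ppp1r3g, Ppp1r3c and Pygl head the left panel, and P4ha2, P4ha1, Plod2 and Plod1 stand apart from the other collagen enzymes on the right.

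The sequence before the start of Ppp1r3g, Pygl and Mgarp is shown because, of the 15 genes with the largest higher differences outside the hypoxia lists, these are the top 3 whose 250 upstream bases hold the core of a hypoxia response element. The core was searched as ACGTG or GCGTG on both strands, and its matches are in capitals. Sequences are from RefSeq (GRCm38.p6), read 5′ to 3′ on the strand of the gene and ending at the base before its annotated start. Ppp1r3g lies on the plus strand at chr13:35967656-35967905, Pygl on the minus strand at chr12:70227684-70227933 and Mgarp on the minus strand at chr3:51396548-51396797.
Ppp1r3g: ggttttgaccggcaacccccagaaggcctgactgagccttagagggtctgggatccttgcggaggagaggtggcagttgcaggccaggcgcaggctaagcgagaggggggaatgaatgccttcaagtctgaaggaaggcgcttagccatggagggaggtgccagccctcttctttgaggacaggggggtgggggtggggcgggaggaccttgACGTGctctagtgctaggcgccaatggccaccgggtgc
Pygl: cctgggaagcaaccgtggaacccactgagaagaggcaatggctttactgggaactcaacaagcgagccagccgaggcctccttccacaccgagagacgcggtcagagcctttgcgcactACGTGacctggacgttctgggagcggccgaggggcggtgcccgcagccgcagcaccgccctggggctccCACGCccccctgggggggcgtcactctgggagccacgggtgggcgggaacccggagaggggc
Mgarp: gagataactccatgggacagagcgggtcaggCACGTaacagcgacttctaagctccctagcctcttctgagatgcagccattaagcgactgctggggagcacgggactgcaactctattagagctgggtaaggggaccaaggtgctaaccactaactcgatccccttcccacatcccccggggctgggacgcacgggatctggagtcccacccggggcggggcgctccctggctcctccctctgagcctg
Ppp1r3g has 1 match, 38 bases before the start, Pygl has 2, at 62 and 131 bases, and Mgarp has 1, at 219 bases. The core is short and common: 41.5% of the 27025 genes in the promoter table hold it in this window, and 58.7% of the 11528 measured genes with an entry, which are too few of the 17923 measured genes to speak for them all. It was present in 17 of 21 glycogen genes with a promoter in the table (81%) and in 25 of 29 measured HIF targets (86.2%). These shares describe whole lists, and the measured glycogen genes were 12 higher and 11 lower, so they are not a result about oxygen. Smtnl2, Cldn5 and Sertm1, which are also among the genes with the largest differences, have no match in their 250 bases. A match is a string of letters and not a measured binding site. It was also present in 8 of the 14 genes with an entry among the 15 largest higher differences (57.1%), the set these sequences come from, and in 90 of 146 higher genes with an entry (61.6%), both near the 58.7% of measured genes. Of the lower genes past 2-fold with an entry 48 of 125 held it (38.4%). Only 146 of the 224 higher and 125 of the 193 lower genes had an entry, so these last shares do not stand for all of them.

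Other genes with large higher differences were of varied function. Mgarp, a mitochondrial protein that takes part in mitochondrial movement, went from -3.93 to 0.52, a difference of 4.45, and Prelid2, of a family of mitochondrial lipid carriers, from 0.34 to 2.58. Smtnl2, a smoothelin-like muscle protein, went from -5.46 to -1.66, a difference of 3.80 that was 2.21 with normexp. Myl7, the atrial myosin light chain, stood at -0.90 at 21% O2 and at 1.26 at 5% O2 and was not well above background in either untransduced culture. The selenium-binding proteins Selenbp1 (-1.28 to 0.58) and Selenbp2 (-1.77 to 0.08) differed by 1.86 and 1.85. They are near-identical copies, so their probes may read each other's transcripts. Both were also higher at 5% O2 in untransduced cells, by 1.51 and 1.45.

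Among the 33 measured amino acid transporters, 3 were at least 2-fold higher and none at least 2-fold lower, although 20 of the 33 were lower by any amount, a balance that turns to 19 higher and 14 lower with spike-in scaling. The arginine and lysine carrier Slc7a3 went from 0.65 to 2.16. The glutamine carrier Slc38a5 went from -3.73 to -1.87 and the neutral amino acid carrier Slc43a1 from -3.85 to -2.60, 1.25 that was 0.88 with normexp. The liver-type glutaminase Gls2, which turns glutamine into glutamate, was higher by 1.20, from -0.39 to 0.81. Other genes outside the lists that were chosen after their values were seen included Txnip, an inhibitor of thioredoxin and of glucose uptake (0.69 to 1.79), the cell-surface peptidase Dpp4 (-1.36 to 0.08), Ndrg2 (-1.51 to 0.19) and the transcription factor Myb (-2.76 to -1.16). For Dpp4 and Myb each of 3 probes gave the same direction. Myb was not well above background in untransduced cells, while Txnip (0.92), Dpp4 (1.78) and Ndrg2 (0.77) were higher at 5% O2 there as well.

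On the lower side, Rnd1, a small GTPase that loosens actin stress fibres, stood at 0.68 at 21% O2 and at -2.00 at 5% O2, a difference of -2.68. Its 3 probes gave -2.68 to -0.43, all lower but of unequal size. In untransduced cells it differed by -1.65. Anxa10, a member of the annexin family, had 3.89 at 21% O2 and 2.16 at 5% O2 and was not well above background in untransduced cells. Rraga, the RagA GTPase that recruits mTORC1 to lysosomes, went from 2.45 to 0.86 in four-factor cells against -0.05 in untransduced ones. The melanoma antigen family gene Mageh1 went from 0.57 to -0.86, and Slc4a7, a sodium bicarbonate cotransporter, from 1.83 to 0.60, with its 3 probes between -1.23 and -0.24. Slc4a7 differed the other way, by 0.96, in untransduced cells.

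Other lower genes were also of varied function. The retinaldehyde dehydrogenase family member Aldh1a7 went from -0.32 to -1.75. The gluconeogenic enzyme Fbp1 went from -1.36 to -2.65 and the embryonic globin Hbb-y from 0.35 to -1.01. The carnitine and organic cation carrier Slc22a4 went from 0.97 to -0.34. Of bright probes, the small heat shock protein Cryab stood at 6.52 and 5.31 and the mitochondrial outer-membrane channel Vdac1 at 5.51 and 4.43. Their 2 probes each gave -1.22 and -0.58 for Cryab and -1.88 and -1.08 for Vdac1. Kifc1, a minus-end kinesin of the mitotic spindle, was lower by 1.60 and Kifc5b by 1.44. These are near-identical copies and their probes may share transcripts, so the pair is uncertain.

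**Figure D3:**
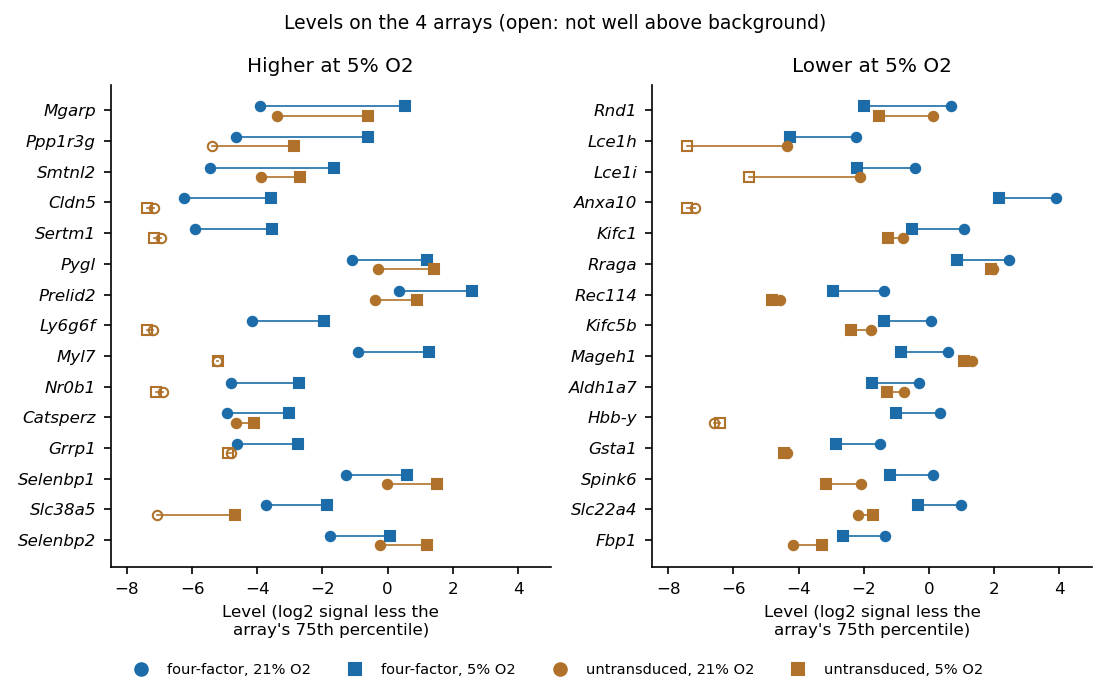
Levels (log2 signal less the 75th percentile) on all 4 arrays for the 15 genes with the largest higher and the 15 with the largest lower difference in four-factor cells outside the hypoxia lists, chosen by a rule that also asked for 2-fold after another background correction. Circles are 21% O2, squares 5% O2, blue four-factor cells, brown untransduced cells, and open symbols are probes not well above background. Cldn5, Sertm1, Ly6g6f, Myl7, Nr0b1, Grrp1, Anxa10 and Hbb-y are open on both untransduced arrays.

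Genes of DNA replication were all higher at 5% O2. Of 47 measured genes of the origins and the replication fork, 47 were higher and none lower, with a median of 0.41, against 48.1% higher among all genes. None reached 2-fold. The differences ran from 0.04 for Orc2, a subunit of the origin recognition complex, to 0.75 for Cdc6, which loads the helicase at origins and stood at -0.26 and 0.49. The 6 subunits of the MCM helicase lay between 0.36 and 0.58. Cdt1, the other loading factor, went from 3.44 to 4.09 and its inhibitor Gmnn from 3.88 to 4.58. Rfc4 of the clamp loader differed by 0.68, Mcm10 by 0.63 and Rpa3 of the single-strand binding complex by 0.61. The 9 polymerase and primase subunits had a median of 0.43 and all were higher. Normexp background correction left 46 of the 47 higher. In untransduced cells 40 of the 47 were lower at 5% O2, with a median of -0.27, and Cdc6 differed by -0.76 there.

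Mitotic genes had a like pattern. Of 66 measured genes, 62 were higher, with a median of 0.44, and 1 was at least 2-fold lower, the uncertain Kifc1. Aurkb, the kinase of the chromosomal passenger complex, went from 0.67 to 1.48 and Cdca3, which triggers mitotic entry, from 2.73 to 3.49. The shugoshin Sgo2a differed by 0.75 and the checkpoint kinases Bub1 and Bub1b by 0.71 and 0.67. All 11 centromere proteins were higher, between 0.29 and 0.62. The exceptions beside Kifc1 were the dim Aurkc (-0.54), Mad1l1 (-0.07) and Bub3 (-0.03). In untransduced cells 61 of the 66 were lower at 5% O2, with a median of -0.21.

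The 250 bases before Cdc6 and Rpa3 are shown because these 2 have the largest differences among the replication genes that hold an E2F-type motif there, searched as TTCCCGC or TTGGCGC on both strands and printed in capitals. Cdc6 lies on the plus strand at chr11:98907901-98908150 and Rpa3 on the minus strand at chr6:8259142-8259391, in the same build and reading direction as above.
Cdc6: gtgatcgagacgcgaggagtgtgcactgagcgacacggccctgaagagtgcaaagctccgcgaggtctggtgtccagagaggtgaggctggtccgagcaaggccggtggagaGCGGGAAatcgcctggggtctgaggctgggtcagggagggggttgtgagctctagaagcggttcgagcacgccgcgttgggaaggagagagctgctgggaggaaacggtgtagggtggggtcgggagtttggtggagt
Rpa3: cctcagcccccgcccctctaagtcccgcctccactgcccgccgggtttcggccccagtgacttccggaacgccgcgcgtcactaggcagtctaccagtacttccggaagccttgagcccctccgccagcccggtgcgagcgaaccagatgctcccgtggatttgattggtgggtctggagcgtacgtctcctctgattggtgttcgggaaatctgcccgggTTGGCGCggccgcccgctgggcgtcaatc
The match lies 138 bases before the start of Cdc6 and 29 before that of Rpa3. Such a motif was found in 13 of the 39 replication genes with a promoter entry (33.3%) and in 9 of 59 mitotic genes (15.3%), against 6.45% of all genes in the table. The measured genes with an entry gave 11%. The CHR letters TTTGAA, known from promoters of late cell cycle genes and searched on both strands, were in 17 of 59 mitotic genes (28.8%) and 15.4% of replication genes. They were in 18.3% of all genes in the table and 13.3% of measured genes with an entry. These E2F and CHR shares describe lists of cell cycle genes and are not a result about oxygen.

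Further genes of the dividing cell leaned the same way. In DNA repair and checkpoint control 57 of 62 were higher with a median of 0.31. They included the uracil glycosylase Ung (0.93 to 1.77), the checkpoint kinase Chek1 (0.65), Timeless (0.67) and Fanca (0.60). The dim Bard1, the partner of BRCA1, was higher by 0.93. In purine and pyrimidine synthesis 28 of 30 were higher with a median of 0.23, led by Pfas (0.62), Dut (0.54) and the thymidylate synthase Tyms (0.49), while the muscle-type Adssl1 (-0.39) and Ctps (-0.15) were lower. Splicing factors were higher in 92 of 118 with a median of 0.17. Hnrnpa1 (5.37 to 5.90) and Snrpd3 (3.30 to 3.83) were among them, whereas the muscleblind proteins Mbnl1 (-0.30) and Mbnl2 (-0.44) and the splicing factor Srsf5 (-0.40) were lower. Mbnl3, another muscleblind protein, was the only splicing gene past 2-fold, at 1.11, or 0.79 with normexp.

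Within the histone genes the classes parted. Of 14 measured H2A genes 13 were higher, with a median of 0.22, and of 9 H2B genes 7 were lower, with a median of -0.49, and the H2B median stayed below 0 with spike-in scaling (-0.32). H2ac15 went from 4.02 to 4.65 and the variant H2az1 from 6.69 to 7.12, while H2bc14 went from 4.38 to 3.68 and H2bc12 from 4.29 to 3.59. All 5 H3 genes were higher. Of 5 H4 genes 4 were lower with a median of -0.05, which turned to 0.11 with 4 higher under spike-in scaling. Genes of 1 class are near-identical copies, so the values within a class are not independent and each may stand for several genes. The linker histone H1f5 was higher by 0.78 and H1f2 lower by 0.47.

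Chromatin regulators differed by less. Of 27 Jumonji-domain genes 20 were higher with a median of 0.11, and none reached 2-fold. The H3K9 demethylases Kdm4b (-1.09 to -0.41) and Kdm3a (2.05 to 2.52), Jarid2 (0.50), Kdm6b (0.43) and the dim Hr (0.42) had the largest values. Kdm2a (-0.23) had the lowest. The maintenance DNA methyltransferase Dnmt1 was higher by 0.53, its partner Uhrf1 by 0.69 and the 5-methylcytosine oxidase Tet2 by 0.74. The dim Dnmt3l was lower by 0.41. Of Polycomb, SWI/SNF, CHD and deacetylase genes 47 of 67 were higher, among them Cbx7 (0.89), Ezh2 (0.47) and Suz12 (0.47). In the MYC network 7 of 13 were higher and the median was 0.00. Its repressor-side partners split, with Mxi1 (0.59) and Mxd3 (0.50) higher and Mxd4 (-0.73) and Mxd1 (-0.26) lower.

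Genes of the contractile cytoskeleton leaned lower. Of 53 measured genes 47 were lower, with a median of -0.36 that was -0.19 with spike-in scaling, where 37 were lower. Apart from Smtnl2 none of the list was past 2-fold. Outside the list Myl7, described above, and the skeletal muscle markers Myh1 (2.28-fold) and Myh8 (2.03-fold) were past 2-fold higher. The cardiac and skeletal alpha-actins Actc1 (4.23 to 3.30) and Acta1 (2.74 to 1.93), smooth muscle actin Acta2 (7.29 to 6.51), the smooth muscle myosin Myh11 (-1.35 to -2.20), tropomyosin Tpm2 (4.99 to 4.17), calponin Cnn1 (5.15 to 4.40) and leiomodin Lmod1 (1.03 to 0.12) were among the lower ones. Non-muscle Actb (0.28) and Myh10 (0.07) were higher, and Csrp2 stood at 4.73 on both arrays. In untransduced cells 50 of 54 were lower with a median of -0.64, and Actc1 differed by -1.82 and Cnn1 by -1.90.

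The upstream bases of Actc1 and Acta1 are shown because these are the lowest of the contractile genes that hold a CArG box, the site of serum response factor, here in capitals. Actc1 lies on the minus strand at chr2:114052876-114053125 and Acta1 on the minus strand at chr8:123894776-123895025.
Actc1: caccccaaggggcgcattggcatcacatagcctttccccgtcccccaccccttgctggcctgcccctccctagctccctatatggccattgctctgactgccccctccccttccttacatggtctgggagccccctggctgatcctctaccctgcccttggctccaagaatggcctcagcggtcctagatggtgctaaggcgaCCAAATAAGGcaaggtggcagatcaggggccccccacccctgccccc
Acta1: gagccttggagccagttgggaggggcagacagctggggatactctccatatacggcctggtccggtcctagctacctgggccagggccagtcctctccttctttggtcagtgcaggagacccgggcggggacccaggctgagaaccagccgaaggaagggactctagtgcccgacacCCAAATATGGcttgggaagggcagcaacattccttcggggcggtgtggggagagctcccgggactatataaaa
The box lies 47 bases before the start of Actc1 and 73 before that of Acta1. It was present in 10 of 47 contractile genes with a promoter entry (21.3%) and in 1.62% of all genes in the table. The list was itself assembled partly from known targets of serum response factor, so this share describes the list and is not a result about oxygen.

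Transcription factors of the early response to serum and targets of the co-activator YAP, which is sensitive to cell stretch, leaned lower as well. Of 33 AP-1 and immediate early genes 26 were lower with a median of -0.31, which was -0.14 with 21 lower under spike-in scaling, and none was past 2-fold. The phosphatase Dusp1 went from 2.03 to 1.16, the mRNA decay factor Zfp36 from -0.45 to -1.20, Atf3 from -1.13 to -1.86 and Egr1 from 1.78 to 1.28. Klf10 (0.25) and Maff (0.22) were higher. Of 34 YAP pathway genes 27 were lower with a median of -0.20, a value that came to -0.03 with spike-in scaling. Past 2-fold were Ankrd1 (1.12 to -0.10), the matrix-associated Ccn1 (3.78 to 2.77) and the dim Rassf5 (-4.12 to -5.13), which was -0.30 with normexp. Ankrd1 and Ccn1 were lower in untransduced cells as well, by 2.39 and 1.34 in size.

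Lysosomal genes formed a second large family on the lower side. Of 58 measured genes 50 were lower and 8 higher, with a median of -0.34 and -0.17 with spike-in scaling, where 42 were lower, and none was past 2-fold. Among proteases, cathepsin D (Ctsd) went from 5.89 to 5.24, cathepsin A (Ctsa) from 4.02 to 3.42 and cathepsin K (Ctsk) from 0.34 to -0.43. The peptidase Tpp1 stood at 4.90 and 4.33. The proton pump that acidifies the organelle followed, with 16 of 18 subunits lower and a median of -0.36, Atp6v0c among them (1.72 to 1.13). The highest members were the pump subunit Atp6v1c2 (-5.37 to -4.67) and cathepsin S (Ctss, -6.54 to -6.11), both dim, and arylsulfatase B (Arsb, -2.90 to -2.66). In untransduced cells 25 of 53 lysosomal genes were lower with a median of 0.02, and for the proton pump 14 of 16 were lower with a median of -0.22.

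Autophagy genes, whose products deliver cargo to lysosomes, were lower in 25 of 31 with a median of -0.19, and 18 of 31 with a median of -0.02 under spike-in scaling. The cargo receptors Sqstm1 (5.66 to 5.08) and Optn (0.18 to -0.40) and the ubiquitin-like proteins Map1lc3a (1.79 to 1.14) and Gabarap (2.77 to 2.27) were lower. The mitophagy receptors Bnip3 (1.70 to 4.79) and Bnip3l (2.58 to 3.16), both HIF targets, stood apart as the highest members. Tfeb, the master transcription factor of lysosome genes, was dim and higher by 0.31.

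**Figure D4:**
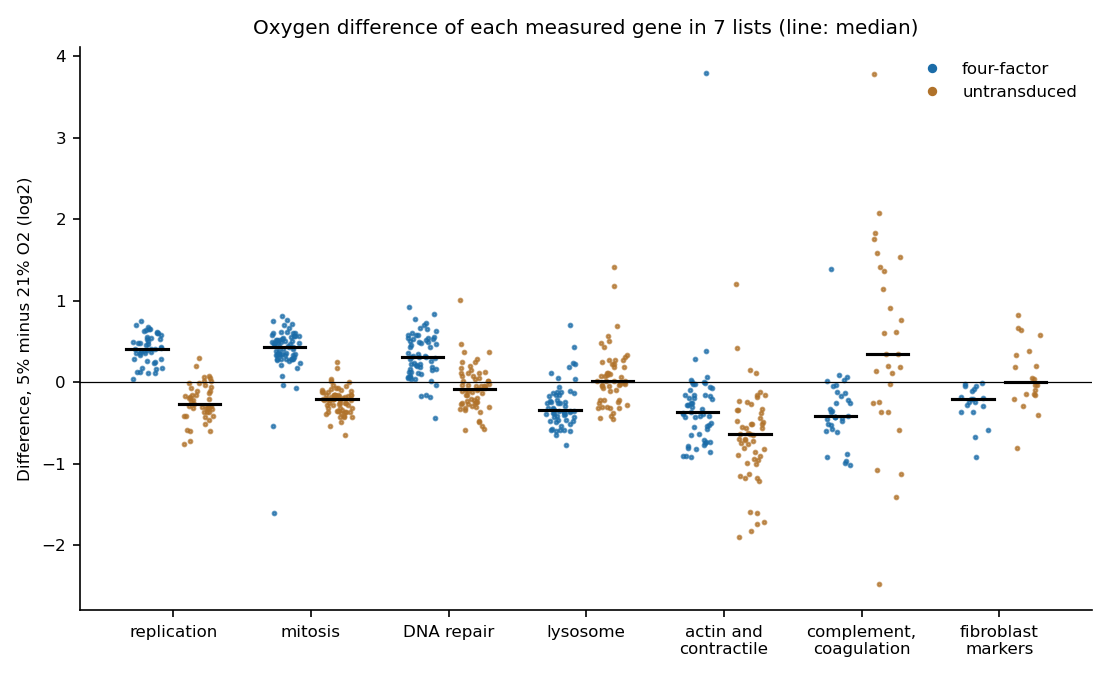
Difference between 5% and 21% O2 (vertical axis, log2) of each measured gene in 7 lists, in four-factor cells (blue) and untransduced fibroblasts (brown), with the median as a black line. Replication and mitosis genes lie above 0 in four-factor cells (medians 0.41 and 0.44) and mostly below it in untransduced cells (-0.27 and -0.21). Lysosomal, contractile, complement and fibroblast genes lie mostly below 0 in four-factor cells, where spike-in scaling raises all points by 0.17 and keeps these medians below 0.

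Among collagen-modifying enzymes some hydroxylases were higher and the lysyl oxidases were lower. Prolyl 4-hydroxylases stabilise the triple helix, lysyl hydroxylases prepare cross-links and lysyl oxidases form them outside the cell. The prolyl hydroxylase subunits P4ha2 (2.08 to 3.19) and P4ha1 (1.42 to 2.47) were past 2-fold, and the lysyl hydroxylases Plod1 (-0.55 to 0.27) and Plod2 (0.47 to 1.28) were each higher by 0.81. Of the remaining hydroxylases, P4ha3 (-0.61), P3h1 (-0.29), P3h2 (-0.24), Plod3 (-0.24) and P3h3 (-0.07) were lower and P4htm (0.20) was higher. The lysyl oxidases were lower without exception: Loxl1 (2.82 to 2.18), Lox (3.01 to 2.47), Loxl4 (-1.92 to -2.34), Loxl3 (-0.33) and Loxl2 (-0.21). So were the processing protease Bmp1 (-0.54) and the collagen-binding Sparc (6.08 to 5.55). Over the whole list 22 of 29 were lower with a median of -0.21, which became -0.04 with spike-in scaling. Untransduced cells had Plod1 at 1.03, P4ha2 at 0.73 and P4ha1 at 0.59, and there Loxl1 and Lox differed by -0.10 and -0.06.

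The collagen chains themselves were lower in 29 of 37 with a median of -0.20, and -0.03 with spike-in scaling. The main fibrillar chains hardly differed, with Col1a1 at 6.45 and 6.40 and Col3a1 at 5.36 and 5.32, whereas Col5a2 (3.53 to 2.91) and Col8a1 (5.09 to 4.40) were lower. The transmembrane collagen Col17a1, an epithelial hemidesmosome component, was higher by 1.13 (0.49 with normexp) and Col9a3 lower by 1.08 (-0.29 with normexp), both dim. Matrix glycoproteins and proteoglycans were lower in 56 of 69 with a median of -0.21, and -0.04 with spike-in scaling. Decorin (Dcn) went from 3.90 to 2.98, the latent TGF-beta binding protein Ltbp1 from 0.94 to 0.13 and matrix Gla protein Mgp from 4.66 to 3.90. Fbn2 (2.35 to 3.05) and the glypican Gpc3 (0.12 to 0.86) were higher. Of the metalloprotease inhibitors, Timp2 stood at 5.54 and 4.54 and Timp3 at 5.86 and 5.16.

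Secreted and inflammatory genes also leaned lower. For complement and coagulation 28 of 33 were lower with a median of -0.41, which was -0.25 with spike-in scaling and -0.17 with normexp. The members furthest from 0 are mainly of clotting and fibrinolysis: the urokinase receptor Plaur (3.34 to 2.34), tissue factor F3 (3.18 to 2.20) and the protein C receptor Procr (0.94 to 0.06). The complement genes C3 (-0.05) and Serping1 (0.03) hardly differed in four-factor cells and were higher by 1.59 and 1.54 in untransduced ones. The protease-activated receptor F2rl1 was the only member past 2-fold higher, at 1.39, and F13a1, a clotting factor also used here as a macrophage marker, the only one past 2-fold lower, at -1.01. Both are dim and were 0.74 and -0.17 with normexp. Summed macrophage markers, as a multiple of the 75th percentile, were 1.31 at 21% O2 and 1.11 at 5% O2 in four-factor cells and 19.4 and 43.9 in untransduced ones, and their part in these values was not tested.

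Among chemokines, interleukins and their receptors 55 of 68 were lower and 4 of them were past 2-fold, with a median of -0.29 that came to -0.08 with normexp. The interleukin Il11 went from -0.31 to -1.40, the chemokine Cxcl16 from -0.85 to -1.98 and its receptor Cxcr6 from 1.15 to -0.01. The dim Cxcl10 went from -5.05 to -6.33, a difference that vanished with normexp. Only 1 gene of this list was past 2-fold lower with normexp. Of 16 clade B serpins, which block intracellular and pericellular proteases, 15 were lower and 3 past 2-fold: Serpinb11 (-1.67), Serpinb7 (-1.49) and Serpinb10 (-1.45). With normexp these came to -0.15, -0.26 and -0.80. Annexins were lower in 10 of 11, and beside Anxa10 the bright Anxa5 went from 6.37 to 5.88 while Anxa2 stayed at 6.36 and 6.34.

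Targets of the oxidant-responsive factor NRF2 and the glutathione and thioredoxin systems were lower in 42 of 52 with a median of -0.21, though 28 of 52 with a median of -0.04 under spike-in scaling. Past 2-fold were the glutathione transferases Gsta2 (-2.74 to -4.18) and Gsta1 (-1.49 to -2.85), the quinone reductase Nqo1 (2.90 to 1.74) and extracellular superoxide dismutase Sod3 (-4.82 to -5.92). With normexp Gsta2 was -0.78 and Sod3 -0.18. Gsta genes are close copies of each other. Haem oxygenase Hmox1 went from 2.81 to 1.96 and sulfiredoxin Srxn1 from 2.97 to 2.21. Glutathione reductase Gsr (1.63 to 2.04) was higher, and mitochondrial Sod2 (0.12) and thioredoxin Txn1 (0.05) differed by less than the spot error.

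Epithelial genes were split in a way their list median (0.04) hides. Of 35 genes of the mesenchymal to epithelial switch 18 were higher and 17 lower, and 4 were at least 2-fold higher. Keratin Krt8 went from 1.43 to 2.80, claudin Cldn3 from -0.80 to 0.53, plakophilin Pkp3 from -2.52 to -1.32 and the adhesion protein Epcam from -4.67 to -3.43, or 0.71 in difference with normexp. The splicing regulator Esrp2 (0.73), Grhl1 (0.78), E-cadherin Cdh1 (0.57) and the dim Crb3 (0.78) and Cldn7 (0.88) were higher by less. Occludin (Ocln) was not well above background at 21% O2, and its bound was 2.7-fold higher at 5% O2. The ceiling at 21% O2 was the lowest signal well above background, or its own dim signal if higher. Spot error is left out of such bounds. Krt18, the usual partner of Krt8, was lower by 0.47 and plakoglobin Jup by 0.54. On the mesenchymal side Zeb1 (-0.41), Snai1 (-0.39), Snai2 (-0.28) and Tgfb1 (-0.69) were lower, and all 19 measured fibroblast markers were lower, by 0.01 to 0.92 in size, with spike-in scaling leaving 13 of the 19 lower. Vim (7.26 and 7.24) and Thy1 (4.77 and 4.49) belong to these.

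Other epithelial families were split. Of 70 measured keratin, claudin, desmosome and cornified envelope genes 25 were higher and 45 lower. Their median of -0.10 turned to 0.06 with spike-in scaling. Keratins were higher in 8 of 22 and claudins in 6 of 11. The desmosome protein Pkp1 went from 1.63 to 2.74 and the epithelial transcription factor Ehf from -2.54 to -1.38 with all 3 probes alike. Claudins Cldn5 (-6.25 to -3.57) and Cldn11 (-2.76 to -1.46) were past 2-fold, at 1.14 and 1.07 with normexp. Cldn5 is also used here as an endothelial marker, and 7 of the 10 measured endothelial markers were lower. In contrast, all 8 measured Lce1 genes, which encode late proteins of the cornified skin layer, were lower, 5 of them past 2-fold, and 6 of the 8 stayed lower with spike-in scaling. Lce1i stood at -0.42 and -2.21. Lce1h and Lce1i, among the 15 largest lower differences, stayed past 2-fold with normexp. Lce1e, Lce1f and Lce1g did not, as only 2 of the 70 genes were past 2-fold lower with normexp. The Lce1 genes are close copies and their probes may share transcripts. Prolactin family genes of the placenta were likewise lower in 5 of 5, with 4 past 2-fold, Prl3d2, Prl2c3, Prl2c5 and Prl3d1, and 4 of the 5 stayed lower with spike-in scaling. With normexp these 4 lay between -0.80 and -0.31.

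Of the introduced factors, Pou5f1 stood at -0.59 and -0.20 and was not well above background in untransduced cells. Sox2 was not well above background at 21% O2 and was at -5.67 at 5% O2, below its level of -4.49 in untransduced cells at 21% O2. Klf4 went from 4.10 to 3.64. The 3 Myc probes gave differences from -0.44 to 0.30, so no direction is given. The position of these probes against the transferred sequences is not known, so they do not check the transduction. Among pluripotency network genes 22 of 31 were higher with a median of 0.13, and 5 were at least 2-fold higher: Nr0b1 (-4.80 to -2.71), Gdf3 (-6.38 to -4.83), Tfcp2l1 (-3.94 to -2.60), Zfp42 (-5.54 to -4.33) and Alpl (-2.25 to -1.08). Tdgf1, a Nodal co-receptor, and Nanog were not well above background at 21% O2. Their bounds, which leave out spot error, were 6.64-fold and 2.43-fold higher at 5% O2. Sox2, described above, gave a bound of 2.26-fold. With normexp Nr0b1 was 1.23, Tfcp2l1 0.90, Gdf3 0.63 and Zfp42 0.62. Osteopontin (Spp1), listed for the pluripotency network but also a matrix protein, was the lowest, from 6.36 to 5.53.

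Ligands and receptors of growth pathways were mostly under 2-fold. In the TGF-beta and BMP pathway 43 of 63 were lower with a median of -0.18, a balance of 32 lower and 31 higher with spike-in scaling. The activin chain Inhba (4.77 to 3.73), the BMP-binding Bmper (1.04 to 0.01) and the dim Gdf6 (-1.48, or -0.32 with normexp) were past 2-fold, and the BMP antagonist Grem1 was lower by 0.94. Of Wnt genes, Wnt7a (-2.40 to -4.26) and the R-spondin receptor Lgr5 (-0.61 to -1.72) were lower past 2-fold, and Wnt2 (1.29 to 2.06) was higher. With normexp neither Wnt7a nor Lgr5 was past 2-fold. Of 29 Notch genes 13 were higher and 16 lower, with a median of -0.07 that turned to 0.10 with spike-in scaling. The ligand Jag2 (-1.98 to -0.83) and the dim Mfng (1.42, or 0.57 with normexp) were higher past 2-fold, and the target Nrarp by 0.99. Apart from Vegfa and Angptl4, which are on the list of HIF targets, the vessel peptide Apln (-1.46 to -0.07, 2 probes) was at least 2-fold higher. The receptor subunit Ramp1 (-2.62 to -3.62) was past 2-fold lower, but not with normexp. Angpt2 (-0.86), Flt1 (-0.83) and Pgf (-0.81) were lower by less. Fgf5 was lower by 1.20, at -0.46 with normexp.

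The large housekeeping families hardly differed. Cytosolic ribosomal proteins had a median of 0.05 over 78 genes with a middle range of 0.00 to 0.08, and mitochondrial ribosomal proteins 0.07 over 75. Ribosome assembly and MYC target genes had 0.09 over 55, with 44 higher. Respiratory chain subunits had 0.02 over 81, where the muscle isoform Cox6a2 (-1.20, or -0.53 with normexp) was the only gene past 2-fold. Medians of the TCA cycle (-0.01), the proteasome (-0.04), cholesterol synthesis (-0.04) and the pentose phosphate group (-0.08) changed sign with spike-in scaling, to between 0.09 and 0.16. In serine and one-carbon metabolism 14 of 22 were higher, Gldc (0.59) and Shmt1 (0.52) among them and Aldh1l2 (-0.52) below. In untransduced cells most of these families were lower at 5% O2, with medians of -0.30 for the proteasome and for ribosome assembly and -0.42 for cholesterol synthesis.

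**Figure D5:**
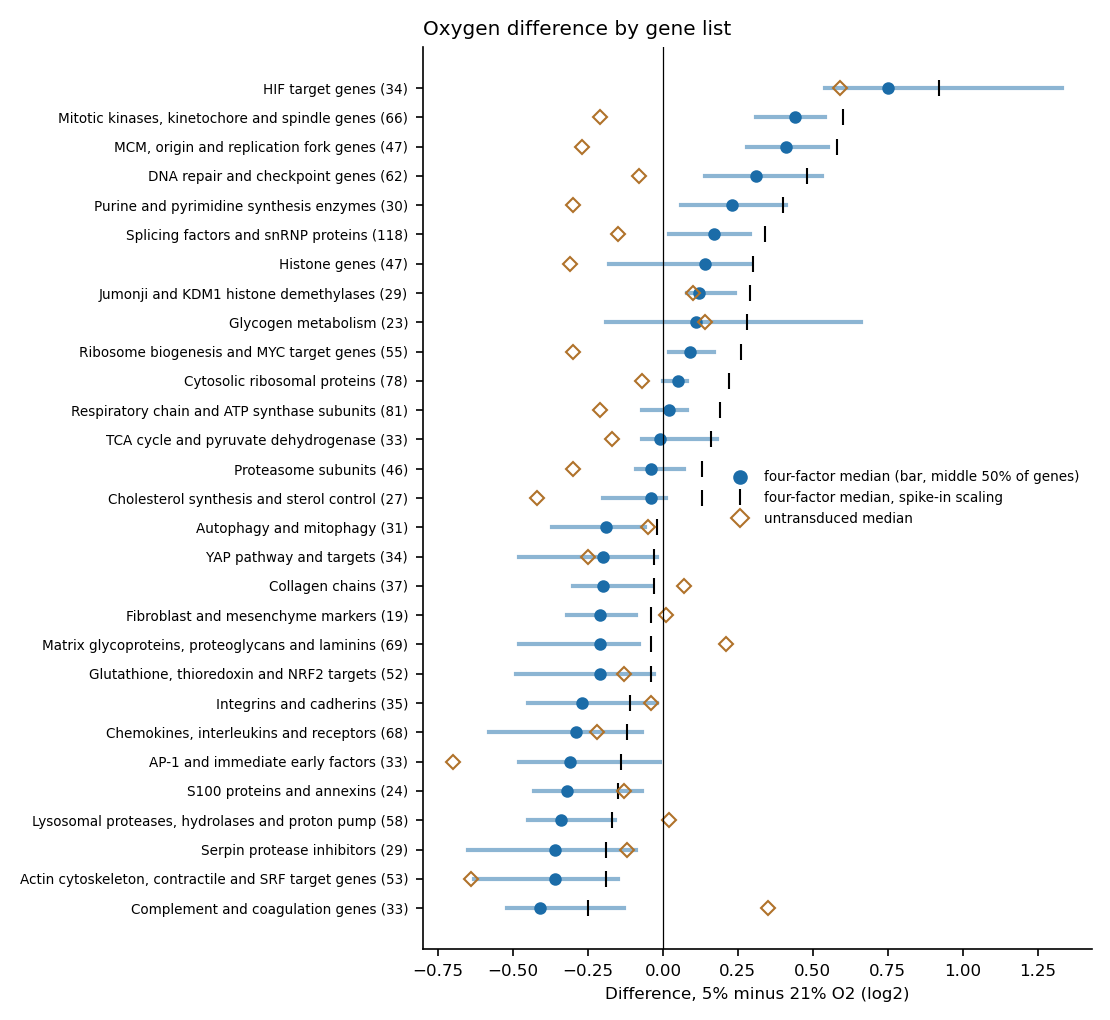
Median difference between 5% and 21% O2 (horizontal axis, log2) for 29 gene lists (histone demethylases shown with Kdm1a and Kdm1b, which lack the Jumonji domain) in four-factor cells (blue circles, with bars over the middle 50% of genes) and in untransduced fibroblasts (open brown diamonds). The number of genes measured on both four-factor arrays follows each name, and the black tick is the four-factor median with spike-in scaling, which lies 0.16 to 0.17 to the right of the circle. The TCA cycle, proteasome and cholesterol medians cross 0 with that scaling, and replication, mitosis, nucleotide synthesis, matrix glycoprotein and complement medians are among those with opposite signs in the 2 cultures.

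Markers of other cell types were checked on the same arrays. Of 21 macrophage markers 12 were measured on each four-factor array, with the sums given above, and Adgre1, Mrc1, C1qa, C1qc, Aif1, Ptprc, Fcgr1, Tyrobp and Cd163 were not well above background on either four-factor array. Endothelial markers summed to 3.74 and 3.66 with Pecam1 and Tie1 not well above background, muscle markers to 8.46 and 6.44, and cartilage and bone markers to 88.8 and 52.1. Of the 8 muscle markers measured on both arrays 3 were higher and 5 lower. The 2 past 2-fold, Myh1 and Myh8, were higher, and 1 muscle marker was past 2-fold higher with normexp. Fibroblast markers summed to 910 and 787, with only Tcf21 not well above background. The part of a change in cell mix in the lower matrix, contractile and complement values was not tested.

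A test was possible only by pooling the cultures. A limma fit over all 4 arrays, with culture and oxygen as additive terms and 1 residual degree of freedom, covered 18279 genes and called 0 genes higher and 0 lower at an adjusted p of 0.05 (percent called 0 in each direction). The smallest adjusted p by limma with Benjamini-Hochberg adjustment was 0.432, and an unadjusted p under 0.05 was reached by 646 genes in the higher and 755 in the lower direction. After normexp this fit called 58 higher and 67 lower, and with spike-in scaling 232 and 166. The spike-in fit gave every gene 1 common variance (an infinite prior degree of freedom, against 2.82 in the fit above) and a smallest adjusted p by limma of 3.27e-29, so its calls rest on that assumption. An oxygen difference of opposite sign in the 2 cultures, as for the replication and mitotic genes, counts as residual spread in this fit. No interaction could be tested with 1 array in each cell of the design.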

How the data were processed

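Total RNA had been extracted with Trizol, labelled in 1 colour and hybridised to Agilent whole-genome mouse arrays, per the labels' protocols. The deposited intensity of each spot was background-subtracted and detrended by Feature Extraction 9.5.3.1, per the file headers. The authors' deposited value table was found to hold log2 intensity scaled to the 75th percentile, since 99.9% of its values lay within 0.02 of that (column medians -3.86 to -3.69). Each array had 41174 probes, 57.1% to 68.4% of them well above background, and 0 saturated spots; 1 array per condition limits the precision.

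Control spots and 65 to 115 outlier spots per array were left out. The level is log2 processed intensity less the 75th percentile, with the brightest probe per gene. Of the probes, 24485 were named by accession, 6225 by symbol and 2382 by synonym, and 8053 kept the file's name. Genes well above background at only 1 oxygen concentration have bounds only. A bound sets that level against the lowest well-above-background signal at the other, or the gene's own dim signal if higher. Bounds leave out spot error. Members and lists were chosen with earlier results of these data known. Named genes were the transduced factors, the 15 largest differences per direction outside the hypoxia lists (also 2-fold with normexp, probes agreeing), list members past 2-fold, otherwise the 4 largest per list, and further genes chosen after their values were seen. Alternatives were normexp (offset 50), quantile and spike-in scaling, no filter or a signal of 100, mean probes and the deposited table. Scripts used Python 3.11.15, R 4.3.3 and limma 3.58.1 and were tested on simulated data.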

Additional observations from a re-analysis of the deposited data

Results flagged for a closer look

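Genes past 2-fold in each culture, and lists with a median of at least 0.2 in size in each culture, are given here where the signs were opposite, and the difference between cultures, with 1 array per condition in each, was not tested. The 47 replication genes had a median of 0.41 under transduction and -0.27 without it, and the 66 mitotic genes 0.44 and -0.21. Enzymes of purine and pyrimidine synthesis had 0.23 and -0.30.

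In the other direction, matrix glycoproteins and proteoglycans had a median of -0.21 in four-factor cells and 0.21 in untransduced ones. The first of these was -0.04 with spike-in scaling and -0.14 with normexp, so it is close to no difference. Medians of untransduced cells are given relative to the 75th percentile only. Complement and coagulation genes had -0.41 (-0.17 with normexp) and 0.35. The macrophage markers had -0.31 over 12 genes and 1.45 over 19, and the first of these was -0.15 with spike-in scaling and -0.01 with normexp, where no opposite direction is left to read. Of single genes, the cartilage collagen Col9a3 was -1.08 and 1.01 and the clotting factor F13a1 -1.01 and 3.78. Both are dim in four-factor cells. Time in culture and slide differ between the pairs as well.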

How the results depend on the processing

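The count of 224 genes past 2-fold higher at 5% O2 became 96 with normexp, 349 with spike-in scaling, 106 at a signal of at least 100 and 900 with no filter on dim probes. The count of 193 lower genes became 38, 96, 66 and 904 under the same settings. Quantile normalization, the mean of all probes and the deposited table kept both within 188 to 225. The additive limma fit over both cultures, with 0 calls, gave 58 higher and 67 lower with normexp, 232 and 166 with spike-in scaling (1 common variance for all genes, smallest adjusted p by limma 3.27e-29) and 5 and 0 at a signal of at least 100, and 0 under the other settings. The cause was not tested. Of 147 named genes past 2-fold, 71 were under it with normexp, 28 with spike-in scaling and 6 with quantile normalization. The dim carboxylesterase Ces2b (-1.12) turned to 0.04 with normexp. Of 86 list medians 27 changed sign with spike-in scaling. No paired analysis was possible because each condition has 1 array and the labels carry no replicate numbers. Signal near background limits the dim genes, and nothing here measures the spread between cultures.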
